A study of Mus musculus with 6 samples.

Results

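SR proteins, heterogeneous nuclear ribonucleoproteins (hnRNPs) and the other splicing factors described here are 41 genes taken from a fixed list of names. They comprise 10 SR proteins, 5 SR-related regulators, 13 hnRNPs, 3 PTB proteins, 4 factors of the 3′ splice site and branch point, and 6 regulators that depend on cell type or signal. The list was written without the MBNL and CELF families. All 41 were found among the 57180 gene identifiers of the files, and all 41 were among the 17639 genes that passed the filter on low counts. They were measured by RNA-seq of corneal endothelial cells, a monolayer that keeps the cornea dehydrated and clear, from 3 libraries of Col8a2Q455K/Q455K mice (Col8a2 group) and 3 libraries of Col8a2Q455K/Q455K/Tcf4+/- mice (Tcf4+/- group). Both groups are homozygous for the Q455K allele of Col8a2, a collagen chain of Descemet membrane, and serve as a model of Fuchs endothelial corneal dystrophy. The Tcf4+/- group carries in addition 1 knockout allele of Tcf4, which encodes a transcription factor of the E protein class. The labels name no treatment besides the knockout, no wild-type group was included, and the age of the mice and the number of animals per library are not stated in the labels.

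Splicing factors decide which exons of a transcript are joined. SR proteins bind exonic enhancers through RNA recognition motifs and recruit the spliceosome through a domain rich in arginine and serine, while many hnRNPs bind silencers and oppose them, so that the balance between the families sets the outcome at many exons. U2AF, SF1 and the SF3B complex recognise the end of the intron and its branch point. In Fuchs dystrophy the usual human risk allele is a repeat expansion in TCF4 whose RNA sequesters MBNL proteins, which is why splicing is studied in this tissue. Neither allele of the mice compared here is such a repeat.

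The libraries held 30344161 to 54265479 estimated counts. The labels do not say whether the libraries of a group came from separate animals, so the p-values measure the spread between these libraries, which may be technical. The Tcf4+/- libraries did not hold less Tcf4 RNA than the others. TMM-scaled CPM (counts relative to library size) of Tcf4 were 313, 470 and 430 in the Col8a2 group and 440, 599 and 373 in the Tcf4+/- group (log2 fold change 0.22, standard error 0.33). The groups are therefore named by their labels only. Defining genes of the endothelium were high, with Slc4a11, a proton transporter, at 2283 to 6827 CPM. Markers of other tissues were detected as well. The corneal epithelium keratin Krt12 stood at 501 to 4585 CPM. The 9 markers of stroma keratocytes summed to 15287, 12942 and 6728 CPM for Col8a2 and 10380, 20226 and 12594 CPM for Tcf4+/-. The 15 endothelial markers summed to 13845 to 28946 CPM over the 6 libraries, and Ptgds is in both lists. The summed level of 13 lens markers was 33.9 to 628 CPM for Col8a2 and 91.6, 4198 and 11172 CPM in Tcf4+/- replicates 1, 2 and 3, and 8 of the 12 lens markers tested had an unadjusted p under 0.05. So had 3 of the 5 erythroid markers tested, whose list summed to 533 to 1968 CPM for Col8a2 and 6128, 1362 and 2943 CPM for Tcf4+/-. The part of these tissues in the results below was not tested. Values without a library, given below for some genes, leave out all that sets that library apart and test no single tissue. In bulk RNA, fewer cells of a type and less RNA per cell cannot be told apart.

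None of the 41 splicing factors passed the test for a change between the groups. The quasi-likelihood test of edgeR called 0 of 41 at a Benjamini-Hochberg threshold of 0.05, against 0% of all genes tested. At an unadjusted p under 0.05 it found 0 of 41, against 2.42% of all genes tested. DESeq2 found 0 of 41 both with and without adjustment, against 0.508% of all genes with an adjusted p under 0.05 and 4.65% unadjusted. With limma voom it was 0 of 41 unadjusted, against 2.94%. The smallest unadjusted p of edgeR was 0.129, for Tra2a, and its adjusted p was 0.99988. Fitted log2 fold changes, given throughout as Tcf4+/- minus Col8a2, ran from -0.53 to 0.54 with a median of 0.09, beside a median of 0.00 over all genes tested. On the CPM scale 25 of 41 were fitted higher and 16 lower, against 50.1% of all genes fitted higher. On the TPM scale, which corrects for transcript length but was not TMM-scaled, 14 of 41 were fitted higher, against 35.2% of all genes. The median was -0.14 beside -0.15 for all genes. With effective length offsets in edgeR, 27 of 41 were fitted higher, with a median of 0.11 beside 0.01 for all genes. Mitochondrial tRNA genes took 15.6% and 15.8% of all TPM in Tcf4+/- replicates 2 and 3. Their part in the TPM counts here and below was not tested.

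The intervals show how large a change these libraries could still hold. For 27 of the 41 genes, or 65.9%, the 95% interval of the log2 fold change lay wholly between -1 and 1, so a change of 2-fold in either direction fell outside it. The same held for 20.7% of all genes tested and for 36.6% of those with a mean of at least 5 TPM. The count of 27 was 17 without Col8a2 replicate 1, 11 without Col8a2 replicate 3 and 17 without Tcf4+/- replicate 2. Of the other 14 genes, 6 had an interval that reached -1 or lower and 9 had one that reached 1 or higher, with Esrp1 counted in both. The median standard error was 0.30 for the splicing factors and 0.54 for all genes tested. The spread between libraries of a group, as the standard deviation of log2 CPM, had a median of 0.30 for the splicing factors, 0.46 for genes of at least 5 TPM and 0.67 for all genes tested.

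**Figure D1:**
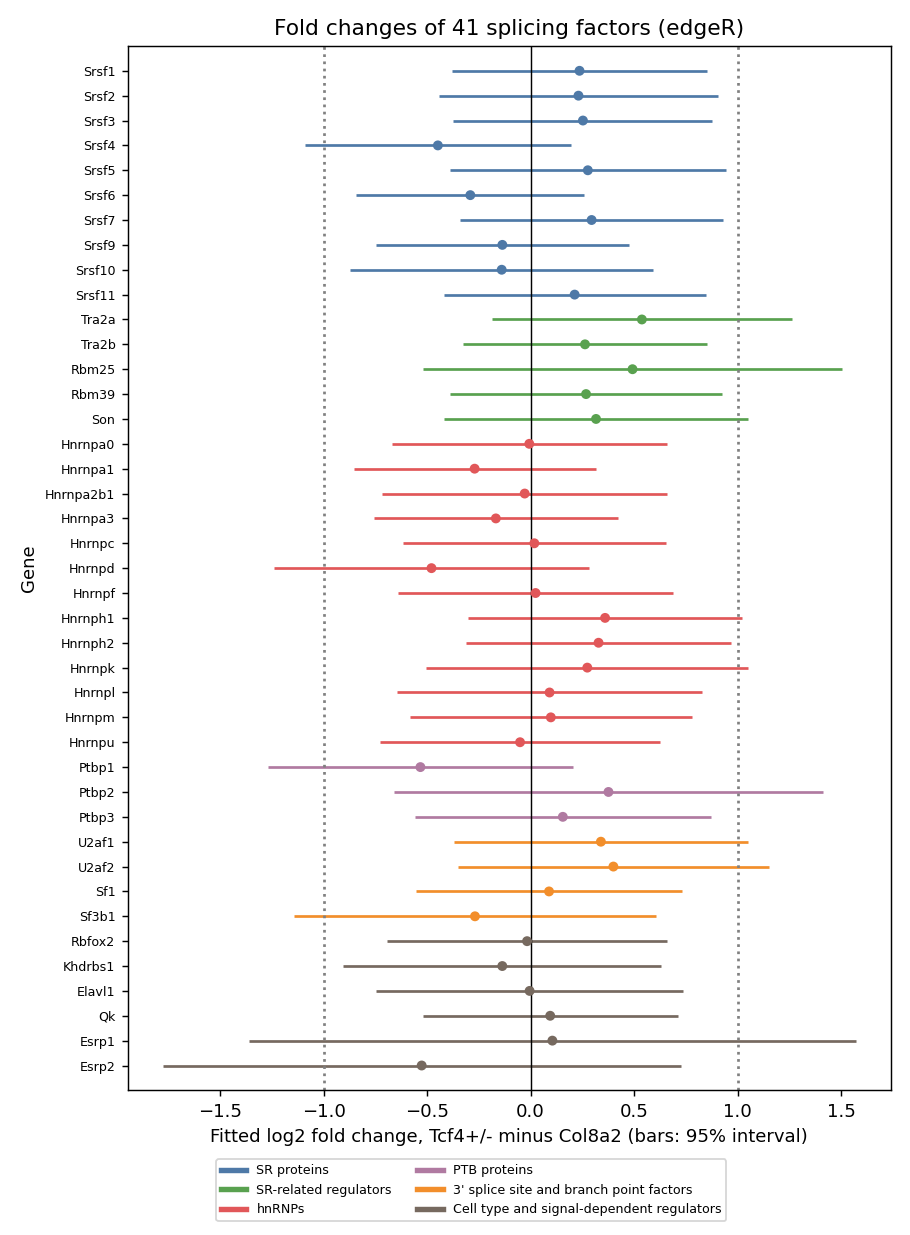
Fitted log2 fold change of each of the 41 genes (points, edgeR on counts, Tcf4+/- minus Col8a2, 3 libraries each) with its 95% interval (bars), coloured by role; dotted lines mark -1 and 1. All 41 intervals take in 0, and 27 lie wholly between the dotted lines.

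Levels are compared between genes in TPM, as means over all 6 libraries. Expression spanned from 362 TPM for Hnrnpk to 5.22 TPM for Ptbp2. Of the 41 genes, 6 stood at 100 TPM or more (Hnrnpk, Hnrnpa2b1, Srsf5, Srsf9, Rbm39 and Hnrnpf) and 4 stood under 10 TPM (Esrp2, Esrp1, Rbfox2 and Ptbp2). Hnrnpk and Hnrnpa2b1 differed by less than their spread over the libraries, at 248.9 to 459 and 274 to 438 TPM, and both lay above Srsf5, which spanned 170 to 246 TPM. These 2 hnRNPs made up 21.1% to 27.8% of the TPM of all 41 genes in every library. From Srsf5 down, the ranges of neighbours in the order overlapped. The 41 genes together took 0.288%, 0.291% and 0.324% of all TPM for Col8a2 and 0.316%, 0.277% and 0.260% for Tcf4+/-. The 2 lowest shares are those of Tcf4+/- replicates 2 and 3, where mitochondrial tRNA genes took 15.6% and 15.8% of all TPM, against 0% in the other 4 libraries.

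**Figure D2:**
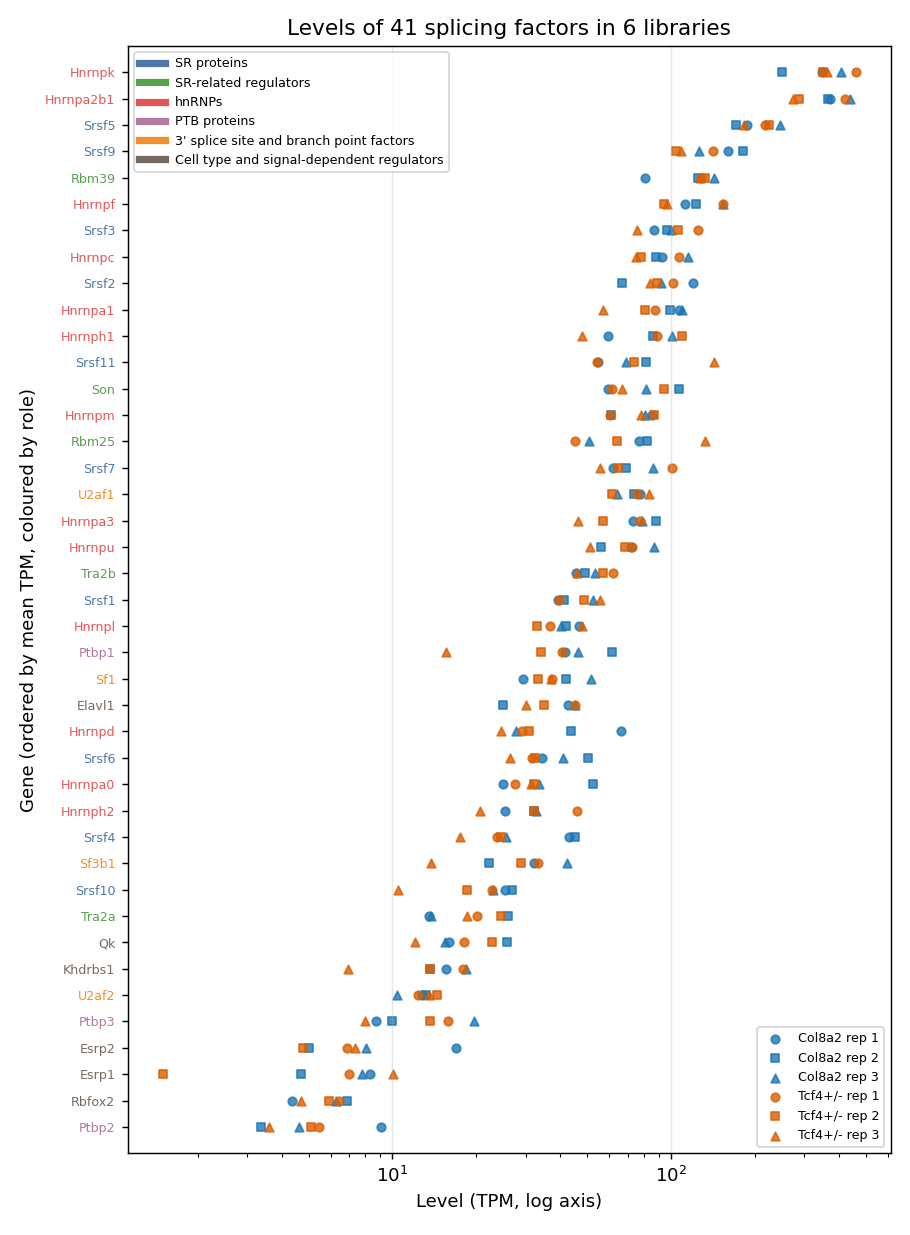
Level of each of the 41 genes in TPM (log axis) in each of the 6 libraries, ordered by the mean and with gene names coloured by role. Hnrnpk and Hnrnpa2b1 stand above all others, and Esrp2, Esrp1, Rbfox2 and Ptbp2 stand at the low end.

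Of the 10 SR proteins, 6 were fitted higher on the CPM scale and 4 lower, with a median log2 fold change of 0.22, and 5 were fitted higher on the TPM scale. Srsf5, a small SR protein and the most abundant of the family in TPM, stood at 245, 191 and 304 CPM for Col8a2 and 287, 327 and 282 CPM for Tcf4+/-. The groups overlapped, through Col8a2 replicate 3, and the log2 fold change was 0.28 with a standard error of 0.30. Srsf9, an SR protein with a short arginine and serine domain, stood at 151, 132 and 107 CPM for Col8a2 and 122, 99.2 and 133 CPM for Tcf4+/-. Its groups overlapped as well, at a log2 fold change of -0.14 with a standard error of 0.27. Srsf6, which takes part in exon choice in tau and other transcripts, was at 101, 116 and 124 CPM against 92.6, 91.9 and 94.0 CPM. All 3 Tcf4+/- libraries of Srsf6 thus lay below all 3 Col8a2 libraries. The log2 fold change of Srsf6 was -0.29 with a standard error of 0.25 and an interval from -0.84 to 0.26 (unadjusted p = 0.265), so the gap was within the error of the fit. Srsf4, a long SR protein, had the smallest p of the family, 0.150. It stood at 75.8, 65.7 and 45.1 CPM for Col8a2 and 43.5, 49.0 and 44.4 CPM for Tcf4+/-, so that Col8a2 replicate 3 lay among the Tcf4+/- libraries. Its log2 fold change was -0.45 with an interval from -1.09 to 0.19. The other 6 genes (Srsf1, Srsf2, Srsf3, Srsf7, Srsf10 and Srsf11) had log2 fold changes from -0.14 to 0.29.

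The SR-related group was the one in which all 5 genes were fitted higher in the Tcf4+/- group on the CPM scale, with a median log2 fold change of 0.32, and none of the 5 passed the test. On the TPM scale 4 of the 5 were fitted higher, and Son was fitted lower. Tra2a and Tra2b are sequence-specific activators that bind GA-rich exonic enhancers. Tra2a stood at 25.2, 35.5 and 20.7 CPM for Col8a2 and 33.5, 43.9 and 40.7 CPM for Tcf4+/-. Only Col8a2 replicate 2 and Tcf4+/- replicate 1 broke the separation, and the log2 fold change of 0.54 was the largest of the 41, with a standard error of 0.32 and an interval from -0.19 to 1.26. Rbm39, a U2AF-related protein, stood at 149, 160 and 241 CPM against 223, 216 and 223 CPM. The Tcf4+/- libraries lay close together, with a standard deviation of 4.10 CPM, within the range of the Col8a2 group. Son, a large scaffold of nuclear speckles, stood at 231, 290 and 269 CPM against 220, 336 and 427 CPM, with the highest value in Tcf4+/- replicate 3.

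Rbm25, which binds exonic elements and U1-associated proteins, was described after its values were seen, because a single library set its difference. Its levels were 173, 137 and 108 CPM for Col8a2 and 95.7, 149 and 343 CPM for Tcf4+/-. Tcf4+/- replicate 3 stood above all others and Tcf4+/- replicate 1 below all others. The log2 fold change was 0.49 with a standard error of 0.45, and without Tcf4+/- replicate 3 it was -0.20. For Son the value without that library was 0.07, against 0.32 with all 6. Tcf4+/- replicate 3 also had the fewest counts, the highest lens level and the lowest endothelial level (13845 CPM summed over 15 markers, against 18684 to 28946 in the others), and the part of these in the level of Rbm25 was not tested.

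Of the 13 hnRNPs, 7 were fitted higher and 6 lower on the CPM scale, with a median log2 fold change of 0.02 and a range from -0.48 to 0.36. On the TPM scale 2 of the 13 were fitted higher. Hnrnpk, a KH-domain protein that binds C-rich RNA, stood at 511, 284 and 487 CPM for Col8a2 and 585, 404 and 562 CPM for Tcf4+/-. Replicate 2 was the lowest of each group, and the groups overlapped. Hnrnpa2b1, which binds UAG motifs and silences exons, stood at 485, 374 and 511 CPM against 503, 371 and 470 CPM. Its log2 fold change was -0.03 with a standard error of 0.31, and replicate 2 was again the lowest of each group. Hnrnpd, also known as AUF1 for its binding of AU-rich elements, had the smallest p of the family, 0.190. It stood at 102, 53.4 and 46.9 CPM against 53.2, 48.9 and 43.3 CPM, so that Col8a2 replicate 1 alone stood high. Without that library its log2 fold change was -0.05, against -0.48 with all 6. The other 10 genes ranged from -0.27 for Hnrnpa1 to 0.36 for Hnrnph1, and the groups of each overlapped in CPM. Hnrnpa1 and several of its relatives have processed pseudogenes, and RSEM divides reads among such copies, so the levels of single hnRNP genes carry that uncertainty.

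PTB proteins bind pyrimidine-rich RNA and repress exons. Ptbp1 is the broadly expressed form, and Ptbp2 replaces it in neurons. Ptbp1 stood at 97.8, 104 and 88.5 CPM for Col8a2 and 87.6, 74.4 and 38.9 CPM for Tcf4+/-. The groups did not overlap, although Col8a2 replicate 3 and Tcf4+/- replicate 1 differed by little, and Tcf4+/- replicate 3 was far below the rest. The log2 fold change was -0.53 with a standard error of 0.33 and an interval from -1.27 to 0.20 (unadjusted p = 0.137), and it was -0.27 without Tcf4+/- replicate 3. Ptbp2 stood at 16.5, 8.08 and 8.69 CPM against 14.1, 15.6 and 13.5 CPM, with Col8a2 replicate 1 the highest of all 6. Its log2 fold change of 0.38 had a standard error of 0.46. Ptbp3, a form best known from blood cells, stood at 54.7, 45.4 and 74.6 CPM against 88.2, 54.9 and 51.5 CPM, also overlapping. In TPM, Ptbp1 exceeded Ptbp2 in every library, by ratios of 4.57, 18.1 and 10.01 in the Col8a2 group and 7.43, 6.67 and 4.28 in the Tcf4+/- group. The 9 retina and neuron markers summed to 2268 to 3138 CPM for Col8a2 and 4838, 2178 and 9436 CPM for Tcf4+/-, with the neuronal gene Rbfox3 among them at 0 to 4.35 CPM, and their part in the level of Ptbp2 was not tested.

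Srsf6 and Ptbp1 were the 2 genes of the 41 whose libraries did not overlap between the groups in TMM-scaled CPM, both lower in the Tcf4+/- group. This is 4.88% of the list, against 3.57% of all genes tested that lay apart in this direction. No splicing factor lay apart in the other direction on this scale, against 4.53% of all genes tested. With scaling by library size only, 4 lay apart in either direction, or 9.76%, against 8.08% of all genes tested. They were Tra2b, higher in the Tcf4+/- group, and Srsf6, Hnrnpa1 and Ptbp1, lower. On the TPM scale 5 lay apart and lower (Srsf4, Srsf6, Srsf10, Hnrnpa1 and Ptbp1), or 12.2%, against 6.53% of all genes tested, and 0 lay apart and higher, against 2.56%.

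The promoters of the genes were searched for the E-box CANNTG, the motif that E proteins such as the product of Tcf4 bind. RefSeq promoters of build GRCm38.p6 were available for 35 of the 41 genes, in 48 windows, of which the 250 bases before the start site were read. The E-box was present in 24 of these windows, or 50%, against 66.2% of 32851 windows of all genes. The palindrome gives the same count on both strands. The form CAGGTG, or CACCTG on the other strand, was in 8.33% of the windows of the list and 17.2% of all windows, and CAGCTG was in 8.33% and 13.0%. A match is a description of the letters and no evidence of binding. The upstream windows are shown for Ptbp1 and Srsf6, whose libraries lay apart, and for Srsf1, Srsf2 and Srsf3, 3 of the 4 genes that hold the CAGGTG or CACCTG form, whose log2 fold changes were 0.24, 0.23 and 0.25 with standard errors of 0.27, 0.30 and 0.28. Each runs 5′ to 3′ on the strand of the gene, with every CANNTG in capitals. They lie at chr10:79854182-79854431 (plus strand, Ptbp1), chr2:162931258-162931507 (plus, Srsf6), chr11:88047123-88047372 (plus, Srsf1), chr11:116853095-116853344 (minus, Srsf2) and chr17:29032410-29032659 (plus, Srsf3).
Ptbp1: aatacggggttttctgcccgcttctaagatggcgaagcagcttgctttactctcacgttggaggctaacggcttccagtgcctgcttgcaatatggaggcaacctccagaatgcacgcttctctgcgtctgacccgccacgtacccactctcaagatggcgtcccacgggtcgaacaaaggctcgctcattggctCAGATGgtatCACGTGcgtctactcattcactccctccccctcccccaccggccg
Srsf6: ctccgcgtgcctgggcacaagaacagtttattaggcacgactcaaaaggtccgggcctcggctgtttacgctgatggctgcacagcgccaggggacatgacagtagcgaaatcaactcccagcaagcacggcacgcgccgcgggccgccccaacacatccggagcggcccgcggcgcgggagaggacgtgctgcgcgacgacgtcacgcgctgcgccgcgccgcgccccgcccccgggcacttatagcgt
Srsf1: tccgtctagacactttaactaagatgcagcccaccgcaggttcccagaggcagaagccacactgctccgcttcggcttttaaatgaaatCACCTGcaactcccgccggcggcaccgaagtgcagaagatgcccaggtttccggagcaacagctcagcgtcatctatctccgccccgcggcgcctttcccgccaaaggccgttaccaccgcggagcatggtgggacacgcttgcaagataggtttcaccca
Srsf2: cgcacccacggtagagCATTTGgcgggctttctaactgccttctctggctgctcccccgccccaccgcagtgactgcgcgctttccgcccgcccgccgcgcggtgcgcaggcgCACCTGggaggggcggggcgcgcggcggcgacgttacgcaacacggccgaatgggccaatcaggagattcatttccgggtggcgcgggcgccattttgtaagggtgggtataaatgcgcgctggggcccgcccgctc
Srsf3: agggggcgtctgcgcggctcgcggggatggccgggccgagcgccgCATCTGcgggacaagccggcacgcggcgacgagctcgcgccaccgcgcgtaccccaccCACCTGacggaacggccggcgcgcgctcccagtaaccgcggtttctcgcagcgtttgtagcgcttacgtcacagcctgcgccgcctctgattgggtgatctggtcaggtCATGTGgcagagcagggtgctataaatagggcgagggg
The window of Ptbp1 holds 2 E-boxes close to each other, that of Srsf6 holds 0, and those of Srsf1, Srsf2 and Srsf3 hold 1, 2 and 3. The E-boxes of Ptbp1 are CAGATG and CACGTG, and its window holds neither CAGGTG or CACCTG nor CAGCTG.

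The factors of the 3′ splice site and branch point were fitted higher in 3 of 4 cases on the CPM scale and in 2 of 4 on the TPM scale, and none passed the test. U2af1, the small subunit of U2AF that reads the AG at the end of the intron, stood at 60.0, 42.4 and 43.6 CPM for Col8a2 and 52.2, 47.5 and 84.9 CPM for Tcf4+/-. Its highest value was in Tcf4+/- replicate 3, and the groups overlapped. U2af2, the large subunit that binds the polypyrimidine tract, stood at 24.7, 19.9 and 18.4 CPM against 22.4, 27.6 and 33.0 CPM. Its log2 fold change was 0.40 with a standard error of 0.33, and Tcf4+/- replicate 1 lay within the Col8a2 range. In TPM, U2af1 exceeded U2af2 by ratios of 5.60 to 6.15 in 5 libraries and 4.22 in Tcf4+/- replicate 2. Sf1, the branch point binding protein, stood at 83.7, 92.2 and 123 CPM against 101, 86.2 and 131 CPM, with a log2 fold change of 0.09. Sf3b1, the core of the U2 complex at the branch point, stood at 186, 89.2 and 214 CPM against 181, 134 and 90.9 CPM, and its log2 fold change of -0.27 had an interval from -1.14 to 0.61.

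Of the 6 regulators that depend on cell type or signal, 2 were fitted higher and 4 lower on the CPM scale. On the TPM scale 0 of 6 were fitted higher. Rbfox2, Elavl1, Qk and Khdrbs1 varied less between libraries of a group than the Esrp genes. Khdrbs1 had a log2 fold change of -0.14 with a standard error of 0.34. Elavl1, the HuR protein that binds AU-rich RNA, stood at 101, 49.9 and 109 CPM for Col8a2 and 95.2, 74.5 and 88.9 CPM for Tcf4+/-. Replicate 2 was the lowest of each group. Qk, a STAR-family protein active in mesenchymal and glial cells, stood at 98.4, 121 and 83.8 CPM against 107, 127 and 90.2 CPM. Rbfox2, which binds GCAUG and is typical of mesenchymal splicing, spanned 24.3 to 31.2 CPM over all 6 libraries, and its log2 fold change was -0.02 with a standard error of 0.30.

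Esrp1 and Esrp2, the splicing regulators of epithelial cells, varied most between libraries of a group. Esrp1 stood at 28.8, 12.8 and 24.7 CPM for Col8a2 and 23.0, 5.09 and 43.4 CPM for Tcf4+/-. Esrp2 stood at 55.4, 12.4 and 20.3 CPM against 19.5, 12.9 and 28.9 CPM. Replicate 2 of each group held the lowest Esrp1 and Esrp2 of its group, and the groups overlapped for both genes. The log2 fold changes were 0.11 with an interval from -1.36 to 1.57 for Esrp1 and -0.53 with an interval from -1.78 to 0.72 for Esrp2. Without Col8a2 replicate 1 the value for Esrp2 was 0.31, and without Tcf4+/- replicate 3 the value for Esrp1 was -0.67. Of the 13 corneal epithelium markers found, 9 were lowest in replicate 2 of both groups. Among these, Krt12 stood at 3796, 1909 and 2436 CPM against 4585, 501 and 2288 CPM, and Krt5 at 1398, 571 and 728 CPM against 1328, 374 and 1090 CPM. Others ran differently. The adhesion gene Cdh1 stood at 18.2, 10.8 and 4.13 CPM against 16.6, 18.4 and 10.5 CPM, highest of all in Tcf4+/- replicate 2. Epcam stood at 9.83, 14.1 and 11.8 CPM against 12.5, 8.29 and 7.93 CPM, highest in Col8a2 replicate 2. The 13 corneal epithelium markers, none of them at 0 in all libraries, summed to 6127 to 13436 CPM for Col8a2 and 5335 to 12116 CPM for Tcf4+/-. Their part in the levels of Esrp1 and Esrp2 was not tested.

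**Figure D3:**
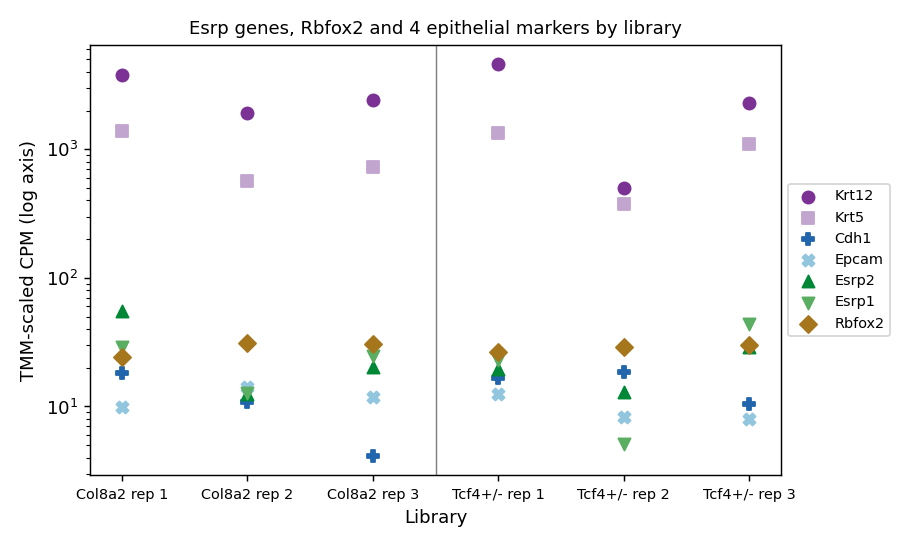
TMM-scaled CPM (log axis) of Esrp1, Esrp2, Rbfox2 and the epithelial markers Krt5, Krt12, Cdh1 and Epcam in each library, 1 point per gene and library. The Esrp genes and both keratins are lowest in replicate 2 of each group, Cdh1 is highest in Tcf4+/- replicate 2, Epcam is highest in Col8a2 replicate 2, and Rbfox2 stays between 24.3 and 31.2 CPM.

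Every gene has a lowest and a highest library, so these counts are set beside the shares over all genes tested. Col8a2 replicate 2 held the lowest CPM of the 6 for 15 of the 41 genes, or 36.6%, while it was the lowest for 18.0% of all genes tested. Tcf4+/- replicate 3 was the highest for 10 of the 41, or 24.4%, against 22.6% of all genes tested. As mean deviation of log2 CPM from the gene means, the SR-related group stood at -0.19, -0.14 and -0.18 for Col8a2 and -0.10, 0.16 and 0.46 for Tcf4+/-. For the SR proteins the same value stayed between -0.13 and 0.12, and for the hnRNPs between -0.21 and 0.10. The PTB group was lowest in Tcf4+/- replicate 3, at -0.36, and highest in Tcf4+/- replicate 1, at 0.31.

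**Figure D4:**
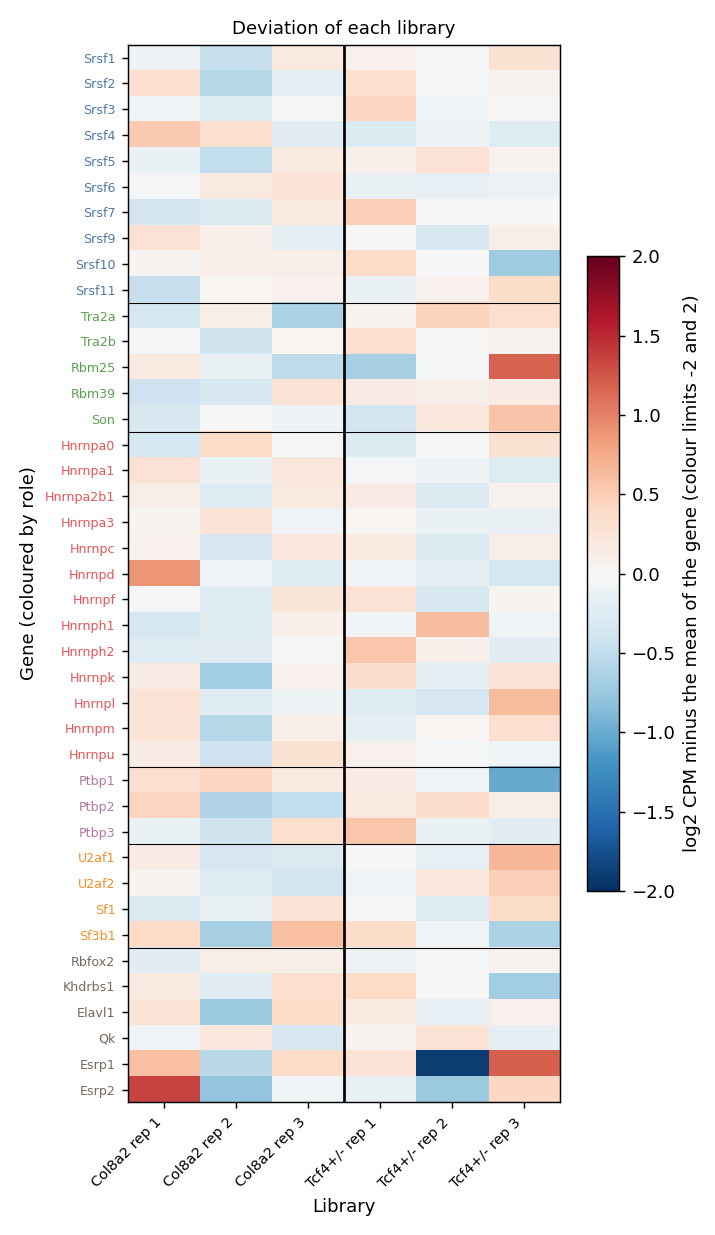
Deviation of log2 CPM from the mean of each gene (colour, limits -2 and 2) for the 41 genes (rows, by role) in the 6 libraries (columns; the line parts the groups). Col8a2 replicate 2 is mostly blue, and Rbm25 and Esrp1 in Tcf4+/- replicate 3 and Esrp2 in Col8a2 replicate 1 are the deepest red.

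Most genes of these families also make transcripts that are held in the nucleus or degraded, and several SR proteins limit their own amount through exons that carry a premature stop. The deposited counts are per gene and include such transcripts. Of 435 transcripts that the files list for the 41 genes, 62 are annotated in GENCODE M21 as targets of nonsense-mediated decay and 120 as retained introns, and 35 of the 41 genes have at least 1 of these. A listed transcript that GENCODE M21 lacks was counted as neither, so these counts are minimums. The only trace of isoform use in the files is the mean transcript length of a gene, which RSEM weights by the estimated abundance of its transcripts. This readout was taken up after the data were seen and is given without a test, for the 40 genes with more than 1 transcript.

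The mean transcript length varied between libraries to a different degree from gene to gene. The ratio of the longest to the shortest value over the 6 libraries had a median of 1.17, against 1.13 for 8801 genes with several transcripts and at least 5 TPM. It was over 1.5 for 3 of the 40 genes, or 7.50%, against 15.6%, and under 1.1 for 13, or 32.5%, against 42.8%. Srsf11, an SR protein with 19 listed transcripts of which 11 are annotated as retained introns, varied most. Its mean length was 1791, 2110 and 2212 bases in the Col8a2 group and 2333, 1961 and 1028 bases in the Tcf4+/- group. Tcf4+/- replicate 3 was thus far shorter than the rest, and the same library had the highest Srsf11 in TPM, 142 against 53.9 to 81.0, while its 152 CPM was closer to the 85.3 to 125 CPM of the others. Ptbp2 came next, at 2039, 3231 and 2267 bases against 2959, 3381 and 3219 bases, and then Srsf1, at 2835, 2662 and 2801 bases against 3337, 2499 and 2165 bases. In both, the groups overlapped.

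The lengths of 5 of the 40 genes did not overlap between the groups. Srsf4, at 1997 to 2160 bases in the Col8a2 group and 2176 to 2257 bases in the Tcf4+/- group, and Esrp1, at 3665 to 3700 and 3706 to 3735 bases, were longer in the Tcf4+/- group, as were 3.02% of all genes. Hnrnpu, a chromatin-bound hnRNP, at 4500 to 4857 and 4306 to 4499 bases, Rbfox2, at 5565 to 5931 and 4569 to 5444 bases, and Elavl1, at 2594 to 2845 and 2404 to 2576 bases, were shorter, as were 5.22% of all genes. Together this is 12.5% of the 40, against 8.24% of all genes. The length of the fragments or reads that RSEM takes off differed between libraries, at 211 to 241 bases in 4 libraries and 155 and 150 bases in Tcf4+/- replicates 2 and 3, and its part in these lengths was not tested.

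**Figure D5:**
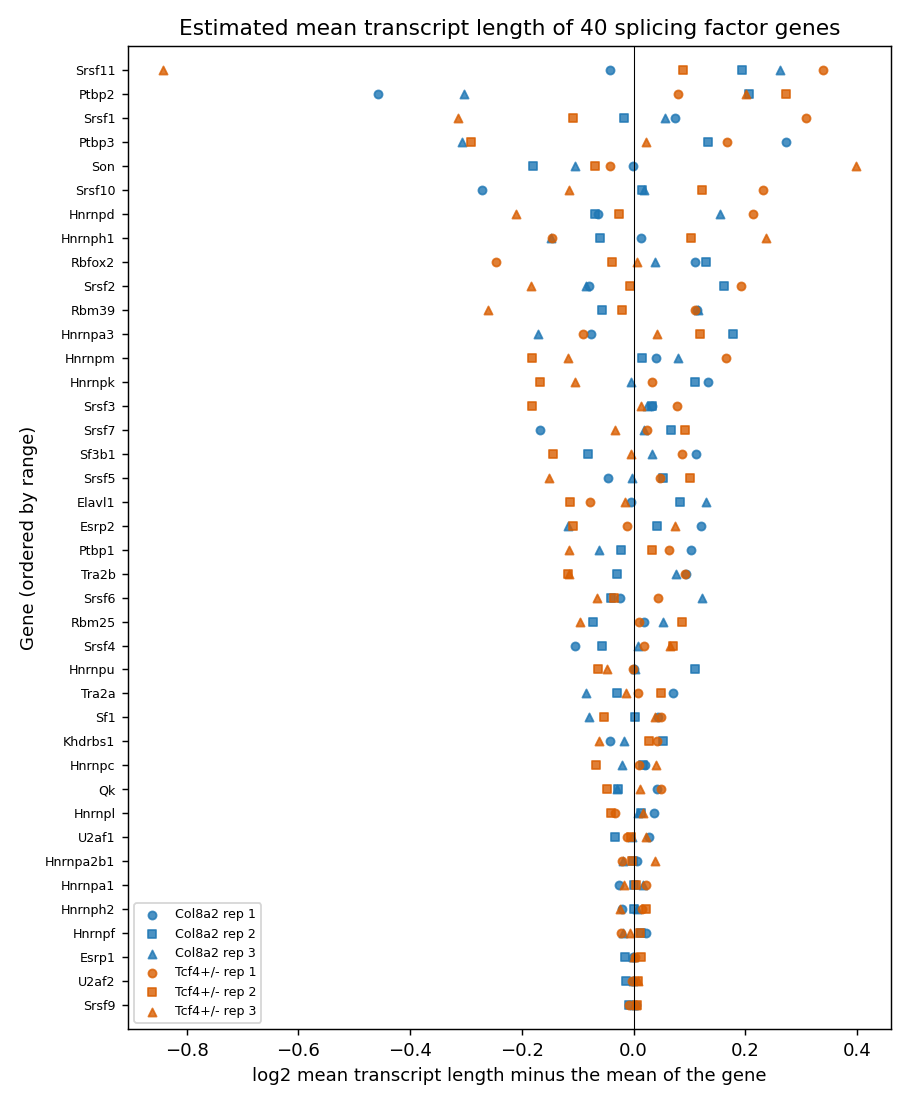
Estimated mean transcript length of each of the 40 genes with several transcripts, as log2 difference from the mean of the gene over 6 libraries (points, coloured by group), ordered by range. Srsf11 in Tcf4+/- replicate 3 lies farthest out, and Srsf9, U2af2 and Esrp1 barely vary.

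Other genes of the splicing machinery were read from 8 lists with 99 names, of which 98 were tested. The edgeR test called 0 of 98 after adjustment. It found 1 with an unadjusted p under 0.05, against 2.42% of all genes tested, so this edgeR count is no more than the background. Among the genes of smallest edgeR p per list, unadjusted p of DESeq2 was under 0.05 for Sf3a2 (0.00714), Upf1 (0.0206) and Dhx38 (0.0462). With limma voom it was for Upf1 (0.0187) and Elavl2 (0.0245). Over all genes the shares were 4.65% and 2.94%. The other listed genes were not counted with DESeq2 or voom. On the CPM scale 60 of 98 were fitted higher and 38 lower, against 50.1% of all genes fitted higher, with a median log2 fold change of 0.11. On the TPM scale 28 of 98 were fitted higher, against 35.2% of all genes. The gene with the unadjusted p of edgeR under 0.05 was Upf1, the helicase of nonsense-mediated decay, at 5.27, 18.0 and 10.9 CPM for Col8a2 and 21.9, 26.9 and 28.2 CPM for Tcf4+/-. Its groups did not overlap, and the log2 fold change was 1.17 (standard error 0.48) at an unadjusted p of 0.0353 (edgeR adjusted p = 0.99988). Sf3a2, a U2 snRNP protein, stood at 4.97, 5.92 and 5.20 CPM against 9.02, 10.4 and 17.3 CPM, and Snrpg, an Sm protein, at 54.7, 50.1 and 53.9 CPM against 58.6, 69.2 and 119 CPM. The groups did not overlap in CPM for either, and neither passed the test. Among the genes given below, Srpk2 and Elavl2 also lay apart and higher in CPM, and Dhx38 and Hnrnpll lay apart and lower. Of all genes tested, 4.53% lay apart and higher in CPM and 3.57% apart and lower. In TPM the groups of Snrpg and Srpk2 overlapped. All of these genes were named for the smallest p of their lists, so their separation is no further evidence.

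U1 and U2 snRNP proteins were fitted higher in 14 of 16 cases on the CPM scale and in 9 of 16 on the TPM scale, and Sm proteins in 5 of 7 and 2 of 7. The U4/U6.U5 and catalytic list was fitted higher in 7 of 16 cases on the CPM scale and in 1 of 16 on the TPM scale, and its gene of smallest p, the helicase gene Dhx38, stood at 20.7, 23.6 and 41.8 CPM against 18.1, 17.6 and 6.18 CPM. Of the kinases that phosphorylate SR proteins, 5 of 7 were fitted higher on the CPM scale and 2 of 7 on the TPM scale. Srpk2 among them stood at 52.5, 45.9 and 60.3 CPM against 71.0, 60.9 and 89.7 CPM. The exon junction and decay list was fitted higher in 7 of 12 cases on the CPM scale and 1 of 12 on the TPM scale, other hnRNPs in 12 of 18 and 3 of 18, and other SR-related proteins in 5 of 8 and 4 of 8. Hnrnpll, an hnRNP of lymphocyte splicing, had a log2 fold change of -0.64 and Srek1, an SR-related protein, one of 0.49, with standard errors of 0.32 and 0.29. Of the tissue-restricted regulators, 5 of 14 were fitted higher on the CPM scale and 6 of 14 on the TPM scale, and Elavl2 stood at 0, 0.424 and 0 CPM against 1.36, 2.18 and 0.945 CPM.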

How the data were processed

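Total RNA of corneal endothelial cells was made into libraries with a SMART-Seq HT kit and Nextera XT, per the labels' protocols, a chemistry that does not mark strand, so reads of a gene and an antisense partner cannot be told apart. The submitters' processing notes name the build GRCm39 and the tools RSEM, STAR, DESeq2, fastp 0.23.2 and FastQC 0.12.1. The authors deposited 1 RSEM table per library with expected counts, TPM, FPKM and lengths per Ensembl gene, per the file headers. The deposited expected counts, 9.97% of them not whole, were rounded for the tests. The deposited TPM and mean transcript lengths were used as they stand, and the deposited FPKM were not used. Symbols came from a separate list of gene names, which matched 51884 of 57180 identifiers. Transcript types came from GENCODE M21, and no coordinates were taken from it.

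Counts were fitted over all 6 libraries with edgeR 4.0.16 in R 4.3.3 (filterByExpr, TMM, robust quasi-likelihood test, Benjamini-Hochberg threshold 0.05 over 17639 genes). Standard errors were the log2 fold change over the root of F. The script was tested on simulated data with the fitted spread between libraries. There edgeR called 2 of 150 genes set to change 2-fold, or 1.33%. It called 56 of 150 set to change 4-fold, or 37.3%. Those genes were drawn from the fit over all genes, not from the splicing factors. A gene that was not called may thus still differ. DESeq2 1.42.0, limma 3.58.1, other scalings and filters, and left-out libraries were alternatives. The libraries were not treated as paired in the main fit. Correlations of deviations between libraries of the same replicate number were -0.04, 0.17 and -0.03. The value of 0.17, for replicate 2, was the highest of any pair across the groups. With 3 libraries a group this cannot settle whether the numbers mark pairs. The 41 genes and all lists were chosen with earlier results of these data known. Genes with per-library values are, in each role, the highest 2 in mean TPM and the smallest p, those whose groups did not overlap, and Ptbp2, Esrp1 and Esrp2. Rbm25, Srsf11, Sf3b1, Rbfox2 and the genes named for their lengths or promoters were added after their values were seen. In the other splicing lists the gene of smallest p is named.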

Additional observations from a re-analysis of the deposited data

How the results depend on the processing

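Under all 18 alternatives, 0 of the 41 splicing factors and 0 of the 98 other splicing genes were called. Over all genes, DESeq2 called 76 higher and 31 lower where edgeR called 0, and leaving out each library in turn gave 0 to 2 higher and 0 to 2 lower. On log2(TPM + 0.1) and log2(TPM + 1) the median of the splicing factors was -0.14 on both, with 14 fitted higher, beside medians of all genes of -0.18 and -0.15. Leaving out each library gave a median of 0.003 to 0.18, with 21 to 28 fitted higher. With the replicate block, 0 were called, 26 were fitted higher and the median was 0.09. The number of intervals within -1 to 1, an added count, was 11 to 28 with 1 library left out and 7 without Tcf4+/- replicates 2 and 3. The number of genes whose groups did not overlap, examined under settings chosen after seeing the data, was 5 in TPM (12.2%, against 9.08% of all genes tested), 4 by library size only (9.76%, against 8.08%), 14 without Tcf4+/- replicates 2 and 3 (34.1%, against 40.4%, with a lone Tcf4+/- library), and 8 without Col8a2 replicate 1 and Tcf4+/- replicate 3 (19.5%, against 28.2%).

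Of 396 fold changes of 22 named genes, 356 kept their direction, 40 reversed and 0 changed side of the threshold, and 10 genes had no reversal. On TPM the direction was judged relative to the median of all genes. Without Col8a2 replicate 1 and Tcf4+/- replicate 3 the reversed log2 fold changes were Srsf11 -0.084, Son -0.0075, Rbm25 -0.0015, Hnrnpd 0.023, Sf1 -0.20, Elavl1 0.10 and Esrp1 -0.42. Without Tcf4+/- replicates 2 and 3 they were Srsf11 -0.049, Son -0.26, Rbm25 -0.55, Hnrnpa2b1 0.13 and Elavl1 0.13. A filter of 5 CPM gave Hnrnpa2b1 0.012 and Elavl1 0.037, effective length offsets gave Ptbp2 -0.12 and Elavl1 0.15, and the replicate block gave Elavl1 0.067 and Esrp1 -0.28. On log2(TPM + 0.1) Elavl1 was -0.0042 and Esrp1 -0.49. On log2(TPM + 1) Sf1 was -0.15, Elavl1 -0.0050 and Esrp1 -0.36. Under voom Elavl1 was 0.067 and Esrp1 -0.50. With 1 library left out, Elavl1 ran from -0.28 to 0.19, Esrp1 from -0.67 to 0.60, Esrp2 from -0.89 to 0.31, Hnrnpa2b1 from -0.15 to 0.10, Ptbp3 from -0.13 to 0.37, Qk from -0.025 to 0.25, Rbm25 from -0.20 to 0.82 and Sf1 from -0.10 to 0.27. The cause of these reversals was not tested, as a left-out library takes all of its traits with it. Depth is lowest in Tcf4+/- replicate 3, and 3 libraries a group limit the precision.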
